A study of Mus musculus with 43 samples.

Results

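Rbm3 and Cirbp, the cold-inducible RNA-binding proteins, are the 2 genes described here, of 10127 genes in the table. They were chosen by their higher level in fasted than in fed mice in these same libraries, so the size of that difference is given below as a description, with no test. RNA was measured in 41 libraries from 12 male adult mice, 6 fed ad libitum and 6 fasted for 24 hours before the brain was taken. All of the mice, fed and fasted alike, carried a paternal deletion of Snord116 (the B6(Cg)-Snord116tm1.1Uta/J line). Their background is given as C57BL/6J in the methods of the study and as C57/BL6 in the labels. No mice without the deletion were analysed here, so each comparison is between feeding states or nuclei of deletion mice. From each brain the arcuate nucleus (ARC), dorsomedial hypothalamus (DMH), paraventricular nucleus (PVN) and ventromedial hypothalamus (VMH) were cut out of frozen sections by laser capture, and amplified RNA was sequenced. ARC had 4 fasted and 5 fed libraries, DMH 5 and 6, PVN 5 and 5, and VMH 6 and 5, spread over 3 batches named in the labels that held 10, 15 and 16 libraries. The unit is CPM, counts of a gene scaled to the library total, and mice are named by state and number as in the labels, such as Fed-125. A library is bulk RNA of a whole captured nucleus, in which fewer cells of a type and less RNA per cell cannot be told apart.

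Rbm3 and Cirbp are small proteins, each with 1 RNA recognition motif followed by a glycine-rich tail. Both are known as genes whose transcripts accumulate when mammalian cells are mildly cooled, while heat-shock genes respond to warming. In the brain, Rbm3 is known for supporting synapse regrowth after cooling, and Cirbp for following the daily cycle of body temperature and for acting on the transcripts of circadian clock genes.

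Libraries ranged in depth from 1.94 to 8.23 M reads (mega, median 4.10 M), and the fasted ones were shallower, with a median of 3.68 M against 4.42 M in the fed ones. Rbm3 was covered by 66 to 276 reads in a library and Cirbp by 80 to 542. At the mean read number of each group, counting error alone gave a coefficient of variation of 7.04% to 9.03% for Rbm3 and 5.47% to 7.12% for Cirbp. The observed coefficient of variation within a group was 9.27% to 46.2% for Rbm3 and 8.25% to 54.5% for Cirbp. ARC and PVN libraries carried a defining gene of their label. Npy, a neuropeptide of ARC neurons, was at 267 ± 69.4 CPM (SD, n = 5) in fed ARC and at most 7.34 in the mean of any other fed nucleus, and Avp, the vasopressin gene, was at 710 ± 328 CPM (n = 5) in fed PVN and at most 4.16 elsewhere. Pmch, a peptide gene of the neighbouring lateral hypothalamus, was at 269 ± 183 CPM (n = 6) in fed DMH and 24.6 ± 9.33 (n = 5) in fed VMH, against 1.08 or less in fed ARC and PVN. A further 2 columns were named for ARC of mice Fast-85 and Fed-92, while the labels list PVN libraries of these mice, so those columns were not used, and each of these mice enters with 1 library (VMH of mouse Fast-85 and DMH of mouse Fed-92). Without mice Fast-85 and Fed-92 the mean difference between fasted and fed was 0.78 for Rbm3 and 0.70 for Cirbp on the log2 scale, against 0.75 and 0.74 with them.

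Cirbp (ENSMUSG00000045193) lies on chromosome 10 from 80165985 to 80172786, plus strand, of GRCm38, and overlaps no other annotated gene. Its RefSeq promoter is shown because the cold response of Cirbp has been traced to a mild-cold response element of the letters TCCCCGCC. The stretch below, chr10:80167589-80167777 on the plus strand of GRCm38.p6, runs from 250 bases upstream of the first of 2 listed RefSeq starts to the first annotated exon in that window, and capitals mark the element and the GC boxes (GGGCGG or its reverse complement).
Cirbp: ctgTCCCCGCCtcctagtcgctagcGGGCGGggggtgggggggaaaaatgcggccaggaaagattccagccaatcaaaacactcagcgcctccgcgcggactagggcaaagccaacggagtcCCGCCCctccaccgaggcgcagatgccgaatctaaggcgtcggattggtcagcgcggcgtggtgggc
The element stands once in the 250 bases before the start, at 80167592 to 80167599, and 4.64% of 32851 RefSeq windows of the same length hold it on either strand. GC boxes, the letters bound by Sp1 family factors, occur 3 times, at 80167614 to 80167619 and 80167774 to 80167779 on the plus strand and at 80167711 to 80167716 on the minus strand, and 32.7% of windows hold at least 1. The element shares no base with a GC box here, and the last GC box runs past the end of the printed stretch. A heat-shock element core (GAANNTTC), a cAMP response element (TGACGTCA), an E-box (CACGTG) and a TATA box (TATAAA) were not found in this window, while 6.69%, 1.55%, 6.02% and 12.4% of windows hold them. These are matches of letters on both strands and not measured binding. The window lies inside the annotated gene, which begins at 80165985, and the window of the other listed start is not described here.

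Rbm3 (ENSMUSG00000031167) lies on chromosome X from 8138975 to 8145880, minus strand, and its 5′ end overlaps the antisense gene Rbm3os (8145429 to 8147964, plus strand). The use of strand in counting is not given in the sources used here, so reads of Rbm3 and Rbm3os in the overlap cannot be told apart. The annotation also lists a pseudogene copy, Rbm3-ps, with which reads may be shared, and neither Rbm3os nor Rbm3-ps was analysed here.

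Rbm3 in fed ARC was at 27.8, 20.2, 29.9, 36.5 and 29.7 CPM in mice Fed-111, Fed-125, Fed-127, Fed-308 and Fed-313. In fasted ARC it was at 49.4, 55.3, 48.7 and 59.0 CPM in mice Fast-100, Fast-305, Fast-311 and Fast-86. The ranges did not overlap, and the means were 28.8 ± 5.85 CPM (SD, n = 5) and 53.1 ± 4.92 (n = 4). VMH had the same form. Its fed libraries were at 27.0, 20.4, 27.7, 38.7 and 20.3 CPM in mice Fed-111, Fed-125, Fed-127, Fed-308 and Fed-313, with a mean of 26.8 ± 7.52 (n = 5). Its fasted libraries had a lowest value of 45.5, a median of 55.1 and a highest value of 79.0 CPM, with a mean of 57.8 ± 11.3 (n = 6). Every fasted VMH library stood above every fed one, and the highest belonged to mouse Fast-86.

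In DMH and PVN the groups overlapped. Rbm3 in fed DMH had a lowest value of 26.6, a median of 29.8 and a highest value of 44.7 CPM, with a mean of 33.4 ± 8.15 (n = 6). In fasted DMH it was at 42.3, 61.9, 30.6, 57.4 and 38.9 CPM in mice Fast-100, Fast-101, Fast-305, Fast-311 and Fast-86, with a mean of 46.2 ± 13.1 (n = 5). Only mice Fast-101 and Fast-311 stood above the highest fed DMH library. In fed PVN it was at 25.5, 57.4, 20.2, 36.2 and 23.8 CPM in mice Fed-111, Fed-125, Fed-127, Fed-308 and Fed-313, with a mean of 32.6 ± 15.1 (n = 5). In fasted PVN it was at 41.9, 48.9, 37.4, 51.4 and 43.7 CPM in mice Fast-100, Fast-101, Fast-305, Fast-311 and Fast-86, with a mean of 44.7 ± 5.59 (n = 5). The PVN overlap came from mouse Fed-125 alone, whose library was above all 5 fasted ones, while the other fed libraries were below them. Mouse Fed-125 was not high in every nucleus, since its ARC and VMH libraries were at 20.2 and 20.4 CPM. Its DMH library, at 42.6 CPM, was above the fed DMH median of 29.8.

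Cirbp in fed ARC was at 51.1, 75.0, 56.8, 49.8 and 48.9 CPM in mice Fed-111, Fed-125, Fed-127, Fed-308 and Fed-313, with a mean of 56.3 ± 10.9 (n = 5). In fasted ARC it was at 97.0, 89.1, 68.4 and 94.6 CPM in mice Fast-100, Fast-305, Fast-311 and Fast-86, with a mean of 87.3 ± 13.0 (n = 4). The overlap was between mice Fed-125 and Fast-311. Cirbp in fed DMH had a lowest value of 27.8, a median of 51.5 and a highest value of 65.3 CPM, with a mean of 50.8 ± 13.6 (n = 6). In fasted DMH it was at 91.2, 71.3, 66.5, 74.9 and 102 CPM in mice Fast-100, Fast-101, Fast-305, Fast-311 and Fast-86, with a mean of 81.1 ± 14.7 (n = 5). DMH was the nucleus in which the ranges of Cirbp did not overlap, with 66.5 CPM as the lowest fasted and 65.3 as the highest fed value.

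Cirbp in fed PVN was at 23.4, 37.1, 38.8, 51.6 and 51.1 CPM in mice Fed-111, Fed-125, Fed-127, Fed-308 and Fed-313, with a mean of 40.4 ± 11.7 (n = 5). In fasted PVN it was at 77.0, 72.6, 71.4, 81.5 and 36.5 CPM in mice Fast-100, Fast-101, Fast-305, Fast-311 and Fast-86, with a mean of 67.8 ± 17.9 (n = 5). The PVN library of mouse Fast-86 stood inside the fed range and the other 4 fasted libraries stood above it. In fed VMH Cirbp was at 23.3, 25.9, 81.0, 49.8 and 36.0 CPM in mice Fed-111, Fed-125, Fed-127, Fed-308 and Fed-313, with a mean of 43.2 ± 23.6 (n = 5). The fasted VMH libraries were the most even of all groups for Cirbp, with a lowest value of 61.7, a median of 69.5 and a highest value of 78.9 CPM and a mean of 70.1 ± 5.78 (n = 6). Mouse Fed-127 was above all of them and the other 4 fed libraries were below them. The ARC library of the same mouse, at 56.8 CPM, was inside the fed range.

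**Figure D1:**
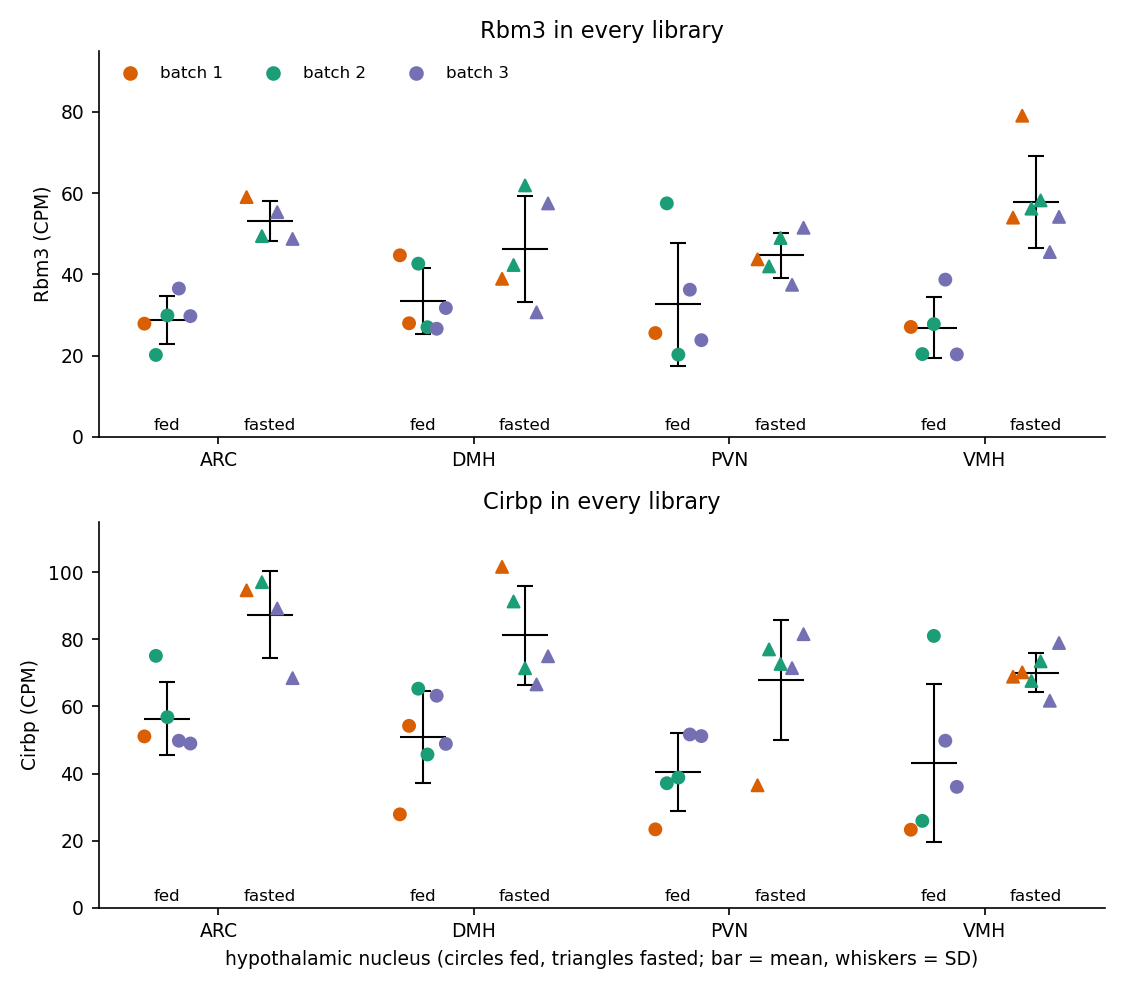
CPM of Rbm3 (top) and Cirbp (bottom) in each of the 41 libraries, by nucleus and feeding state, with circles for fed and triangles for fasted mice, colours for the 3 batches, a bar for the mean and whiskers for the SD. Fasted and fed ranges do not overlap for Rbm3 in ARC and VMH. For Cirbp they do not overlap in DMH but nearly touch (lowest fasted 66.5, highest fed 65.3 CPM). Single libraries make the overlap in PVN for Rbm3 (fed, 57.4 CPM) and in VMH for Cirbp (fed, 81.0 CPM).

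Next, the level in each nucleus was compared between nuclei, averaged over feeding states, which the choice of the genes did not use. The order of Rbm3 by its mean over all libraries of a nucleus was VMH at 43.7 ± 18.6 CPM (SD, n = 11), ARC at 39.6 ± 13.8 (n = 9), DMH at 39.2 ± 12.1 (n = 11) and PVN at 38.7 ± 12.5 (n = 10). These means hold unequal numbers of fed and fasted libraries, which the fit weighs equally. No neighbours in that order differed beyond their spread, and none of the 6 pairs of nuclei passed an adjusted p of 0.1 (limma over all genes, mouse as a block, adjusted p 0.811 to 0.977). The differences between nuclei were at most 0.08 on the log2 scale with SEs of 0.16 to 0.17. The order of Cirbp was ARC at 70.1 ± 19.7 CPM (n = 9), DMH at 64.6 ± 20.7 (n = 11), VMH at 57.9 ± 20.9 (n = 11) and PVN at 54.1 ± 20.3 (n = 10).

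Cirbp was higher in ARC than in PVN by 0.47 ± 0.17 on the log2 scale (SE, limma, adjusted p = 0.0559) and higher in ARC than in VMH by 0.40 ± 0.16 (adjusted p = 0.0717). Neighbours in the order did not pass: ARC minus DMH was 0.13 ± 0.16 (adjusted p = 0.673), DMH minus VMH 0.26 ± 0.16 (adjusted p = 0.265) and PVN minus VMH -0.07 ± 0.16 (adjusted p = 0.801). DMH minus PVN was 0.33 ± 0.16 (adjusted p = 0.177). Differences between nuclei were common in these libraries. Of 10121 genes tested, 16.6% passed for ARC against PVN and 30.2% for ARC against VMH, and 17.9% for ARC against DMH, 18% for DMH against PVN, 23.3% for DMH against VMH and 31.2% for PVN against VMH. Neither Cirbp difference passed when batch 1 was left out, with 0.26 for ARC minus PVN (adjusted p = 0.364) and 0.31 for ARC minus VMH (adjusted p = 0.164). ARC minus PVN also missed without mouse Fast-86, Fast-100, Fed-111 or Fed-125, with values of 0.34, 0.48, 0.39 and 0.41, and ARC minus VMH without mouse Fast-86, Fast-100, Fast-101, Fed-111, Fed-125 or Fast-305, with values of 0.34, 0.37, 0.39, 0.33, 0.27 and 0.37. DMH minus PVN passed without mouse Fed-92 (0.39, adjusted p = 0.0965) and DMH minus VMH without mouse Fed-127 (0.41, adjusted p = 0.0647).

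The contrast that the genes were selected on is described next. In log2(CPM + 0.5), fasted minus fed within a nucleus with batch as a covariate, Rbm3 was higher by 1.09 ± 0.22 (SE) in VMH, 0.85 ± 0.22 in ARC, 0.54 ± 0.25 in PVN and 0.45 ± 0.24 in DMH. The ratios of the mean CPM were 2.15, 1.84, 1.37 and 1.38 in the same order. Cirbp was higher by 0.89 ± 0.24 in VMH, 0.74 ± 0.17 in PVN, 0.68 ± 0.18 in ARC and 0.68 ± 0.21 in DMH, with ratios of the mean CPM of 1.62, 1.68, 1.55 and 1.60. Leaving out 1 library at a time gave 0.99 to 1.26 (VMH), 0.77 to 0.94 (ARC), 0.34 to 0.79 (PVN) and 0.31 to 0.57 (DMH) for Rbm3, with the PVN extremes without mice Fed-127 and Fed-125. For Cirbp it gave 0.66 to 1.16 (VMH), 0.69 to 0.80 (PVN), 0.62 to 0.75 (ARC) and 0.45 to 0.78 (DMH), where 0.45 was without mouse Fast-86. Averaged over the 4 nuclei in 1 fit with the mouse as a block, the difference was 0.75 ± 0.12 for Rbm3 and 0.74 ± 0.11 for Cirbp, while the median over all genes was 0.01. Groups of Rbm3 that did not overlap were found in ARC, where 1.12% of the 9654 genes tested there had every fasted above every fed library. They were also found in VMH, where 0.25% of 9594 genes did. For Cirbp this held in DMH, where the share was 0.215% of 9751 genes. In PVN, where it was 0.703% of 9529 genes, neither gene was among them. Because the genes were chosen by this contrast, nothing is read from these shares.

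The same contrast was also described within batches. Because the genes were chosen by it, nothing is read from a shared sign. The share of all genes with such a sign was not computed. Rbm3 was higher in the fasted mean in 12 of 12 combinations of nucleus and batch, by 0.14 (DMH, batch 1) to 1.26 (VMH, batch 1), and Cirbp likewise in 12 of 12, by 0.34 (DMH, batch 3) to 1.56 (VMH, batch 1). In batch 1 Rbm3 ran from 0.14 to 1.26 and Cirbp from 0.63 to 1.56, in batch 2 Rbm3 from 0.40 to 1.25 and Cirbp from 0.56 to 0.97, and in batch 3 Rbm3 from 0.52 to 0.81 and Cirbp from 0.34 to 0.71. Each of these values rests on 1 or 2 libraries a group. The same mice recur across nuclei, so the 12 combinations are not independent.

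**Figure D2:**
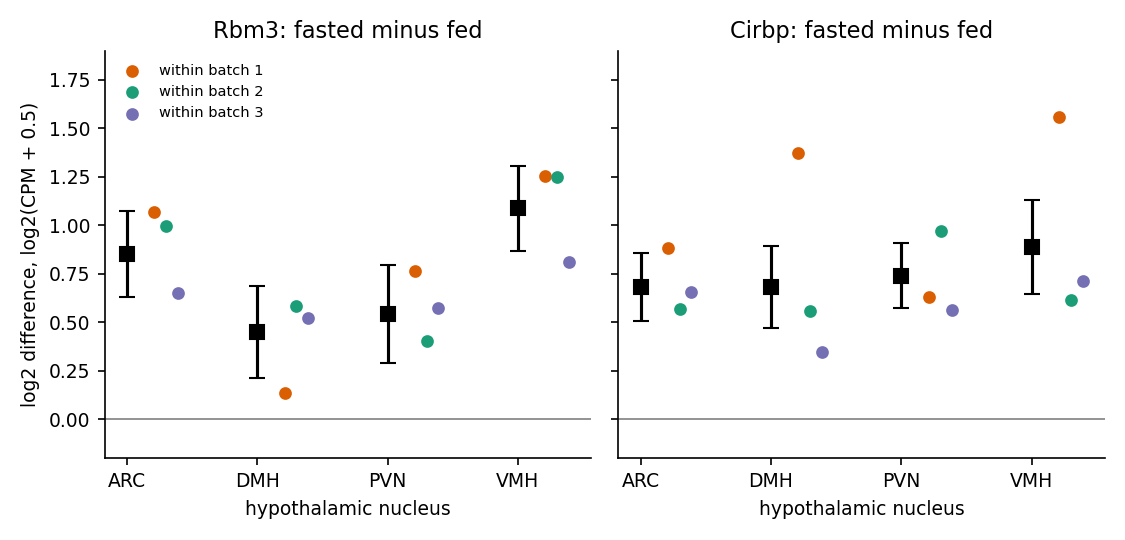
Difference between fasted and fed libraries in log2(CPM + 0.5) for Rbm3 (left) and Cirbp (right) in each nucleus. Squares with whiskers are the fitted difference with its SE, coloured points are the difference of means within each of the 3 batches, and all 12 within-batch points of each gene lie above 0. The genes were chosen by this contrast.

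To assess whether the fasting difference itself varied between nuclei, the interaction of nucleus and state was tested, which concerns only the spread of the 4 differences and not their common size. For Rbm3, which ranged from 0.45 in DMH to 1.09 in VMH, F was 1.80 (adjusted p = 0.952, limma over 10121 genes). For Cirbp F was 0.23 (limma, adjusted p = 0.995). The same limma test called 0 genes (0%) at the threshold of 0.1. Before adjustment 517 of the 10121 genes had a p under 0.05, near the share of 0.05 that arises with no interaction. A difference between nuclei in the response of either gene was thus not detectable with these libraries, and the SEs of 0.17 to 0.25 of a single nucleus bear on what could have been seen.

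The levels of Rbm3 and Cirbp were then set against each other. Over the 41 libraries, after the means of nucleus and batch were removed, Pearson's r was 0.58, as a description, since libraries share mice and states. Among 7639 genes with a mean of at least 5 CPM, Cirbp was the 12th most similar to Rbm3 and Rbm3 the 7th most similar to Cirbp, and the median gene had r = -0.01 with either. With the means of nucleus by state and of batch removed, r was 0.04. The likeness was thus carried by the difference between fed and fasted libraries for which both genes were chosen. On that scale Cirbp ranked 2996 among the genes by likeness to Rbm3.

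**Figure D3:**
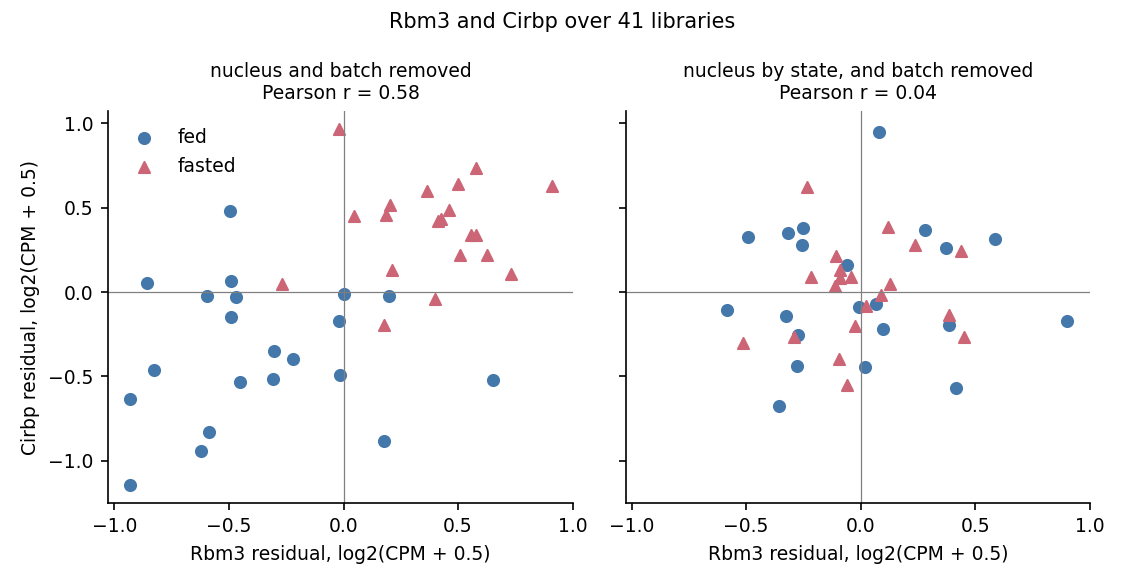
Residuals of Rbm3 (x axis) and Cirbp (y axis) in log2(CPM + 0.5) over 41 libraries, circles fed and triangles fasted, after removal of nucleus and batch means (left) and of nucleus by state and batch means (right). Fed and fasted libraries separate along the diagonal on the left, with r = 0.58, and mix on the right, with r = 0.04.

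The same question was asked over mice within a state, with 1 value per mouse, the mean over its libraries of log2(CPM + 0.5) relative to the nucleus. Over the 6 fed mice Pearson's r was -0.62 (exact permutation test, 2-sided, p = 0.190, adjusted p = 0.711) and Spearman's rho -0.49 (p = 0.356, exact permutation, adjusted p = 0.711). Over the 6 fasted mice r was 0.14 (exact permutation p = 0.782, adjusted p = 0.782) and rho 0.20 (exact permutation p = 0.714, adjusted p = 0.782). The p-values of both coefficients in fed and in fasted mice were adjusted together. Without the 2 mice farthest from the median of Rbm3, r was -0.04 in fed and 0.41 in fasted mice. The negative value in fed mice rests on mouse Fed-92, which has only a DMH library with Rbm3 at 44.7 and Cirbp at 27.8 CPM, the highest and the lowest of fed DMH, and without it r was 0.32. In fasted mice r was -0.59 without mouse Fast-305. With 6 mice a state, each batch holds 2 mice of a state, too few for a value within batches. The relation of Rbm3 to Cirbp within a state was therefore not resolved. Mean Rbm3 over a mouse's libraries ran from 26.2 to 44.7 CPM in fed and 42.2 to 56.3 CPM in fasted mice, and mean Cirbp from 27.8 to 55.6 and from 68.8 to 83.2 CPM.

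Genes whose level was most like that of Rbm3 over the 41 libraries, nucleus and batch removed, were Rsrp1 (r = 0.70), Zfp738 (0.67), Mt2 (0.63), B630019K06Rik (0.63) and Pdk2 (0.63). Rsrp1 encodes an arginine and serine rich protein, Mt2 a metallothionein and Pdk2 a pyruvate dehydrogenase kinase. With state removed as well, these values were 0.39, 0.44, 0.15, 0.48 and 0.20, so Mt2 and Pdk2 followed Rbm3 mainly through the difference between states. The most opposite genes were Vps13a (r = -0.74), the chaperone gene Hsph1 (-0.69), Hnrnpc (-0.67), the glial potassium channel gene Kcnj10 (-0.66) and the GABA-B receptor gene Gabbr2 (-0.63). Within states they were at -0.52, -0.10, -0.20, -0.22 and -0.53.

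For Cirbp the most similar genes were B4galt6 (r = 0.67), a galactosyltransferase gene, the ubiquitin ligase gene Arih2 (0.66), the spliceosome gene Prpf4 (0.64), Ints6l (0.61) and the amylase gene Amy1 (0.60). Within states they were at 0.54, 0.50, 0.41, 0.45 and 0.32. The most opposite were Hsph1 (r = -0.77), Kcnj10 (-0.72), D17Wsu92e (-0.69), Qk (-0.69), an RNA-binding protein gene of glia, and Hpgd (-0.66), with -0.41, -0.33, -0.48, -0.40 and -0.46 within states. Hsph1 and Kcnj10 stood among the 5 most opposite genes of both Rbm3 and Cirbp. Amy1 and near-identical amylase genes may share reads, so its value is uncertain. These correlations share libraries, mice and depth and are descriptions.

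Gene lists related to the pair were counted in the mean fasting difference over nuclei, where 1.52% of all 10121 genes were higher in fasted mice and 1.66% lower at an adjusted p under 0.1 (limma). Heat-shock genes are the counterpart of the cold-inducible pair. Of 23 listed, 6 were measured, 4 of these fell and none rose, and the list's median was -0.36 against 0.01 over all genes. Hsph1, an HSP110 exchange factor of HSP70, fell by 0.70 ± 0.05 on the log2 scale (SE, adjusted p = 8.35e-15). Its mean in VMH was 1332 CPM in fed and 843 in fasted libraries, in ARC 1212 and 727, in PVN 949 and 607, and in DMH 823 and 492. Hspa1a, the stress-inducible HSP70, fell by 1.05 ± 0.27 (adjusted p = 0.0282) from a low level, a mean of 7.89 CPM over all libraries. Fkbp4, an HSP90 partner, fell by 0.31 ± 0.07 (adjusted p = 0.00442) and Hspe1, the mitochondrial HSP10, by 0.33 ± 0.09 (adjusted p = 0.0519). Cryab, a small heat-shock protein, and Bag3, a partner of HSP70, were at -0.39 ± 0.14 (adjusted p = 0.157) and -0.12 ± 0.22 (adjusted p = 0.871).

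Of these 4 genes, Hsph1 alone kept its call in each alternative tried. With 1 mean value per mouse in place of libraries, 2 genes of the whole table passed, Gm17660 and Hsph1 (-0.71, adjusted p = 0.0376), and the adjusted p was 0.416 for Hspa1a, 0.491 for Fkbp4 and 0.614 for Hspe1. Without the batch covariate Hsph1 was the 1 heat-shock gene to pass, and without batch 1 the 2 to pass were Hsph1 and Fkbp4 (Hspa1a adjusted p = 0.144, Hspe1 adjusted p = 0.243). Leaving out mouse Fast-86, Fed-111 or Fed-308 also left 2, with adjusted p of 0.1001, 0.112 and 0.204 for Hspa1a and 0.343, 0.237 and 0.153 for Hspe1, whose difference without mouse Fast-86 was -0.20. Hspe1 further missed without mouse Fast-100 (0.115), Fast-101 (0.103) or Fed-127 (0.184), and Hspa1a with log2 depth as a covariate (0.127).

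Of 20 listed relatives that share the RNA recognition motif with the pair, 13 were measured, none rose and 1 fell, Tardbp, the TDP-43 gene, by 0.42 ± 0.06 (adjusted p = 7.02e-06). Its mean was lower in fasted libraries of each nucleus, with log2 differences of -0.55 ± 0.10 in PVN, -0.42 ± 0.12 in DMH, -0.38 ± 0.14 in ARC and -0.30 ± 0.11 in VMH. The list's median was 0.01. Tardbp did not pass with 1 value per mouse (adjusted p = 0.295) or without the batch covariate (adjusted p = 0.113).

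Of 19 regulators and partners of the pair, 7 were measured and none passed, with a median of -0.03 and 1 unadjusted p under 0.05. Ntrk2, the TrkB receptor gene that acts upstream of Rbm3 in cooled neurons, was at 0.08 ± 0.04 (adjusted p = 0.351). The splicing factor gene Srsf2 was at 0.01 ± 0.06 (adjusted p = 0.963) and Tia1, a stress granule protein gene, at -0.10 ± 0.07 (adjusted p = 0.538). Of 8 genes with a cold-shock domain, a different fold that also binds RNA, 5 were measured and none passed, with a median of 0.01 and 0 unadjusted p under 0.05. Csdc2 was at 0.07 ± 0.09 (adjusted p = 0.806) and Lin28b at -0.01 ± 0.15 (adjusted p = 0.991).

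Of 22 circadian clock genes 12 were measured, none rose and 1 fell. Bhlhe40, a repressor of clock output, fell by 0.64 ± 0.14 (adjusted p = 0.00505), with 103 ± 21 CPM (SD, n = 5) in fed and 55.5 ± 17.4 (n = 4) in fasted ARC and 109 ± 32.2 (n = 5) and 60.0 ± 19.7 (n = 6) in VMH. In DMH it was at 75.5 ± 17.5 (n = 6) and 60.4 ± 24.4 CPM (n = 5) and in PVN at 57.1 ± 13.1 and 46.8 ± 21.1 CPM (n = 5 each), and the log2 differences with their SEs were -0.95 ± 0.20 in ARC, -0.83 ± 0.23 in VMH, -0.53 ± 0.25 in DMH and -0.38 ± 0.26 in PVN. The mean difference was -0.41 without mouse Fast-86 (adjusted p = 0.0710) and -0.36 without batch 1. Clock, the transcripts of which Cirbp is known to act on, was at -0.18 ± 0.07 (adjusted p = 0.231), and Per2 and Dbp were at 0.15 ± 0.19 (adjusted p = 0.800) and 0.26 ± 0.22 (adjusted p = 0.668). Bhlhe40 did not pass with 1 value per mouse (adjusted p = 0.447), without the batch covariate (0.108) or without batch 1 (0.144).

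**Figure D4:**
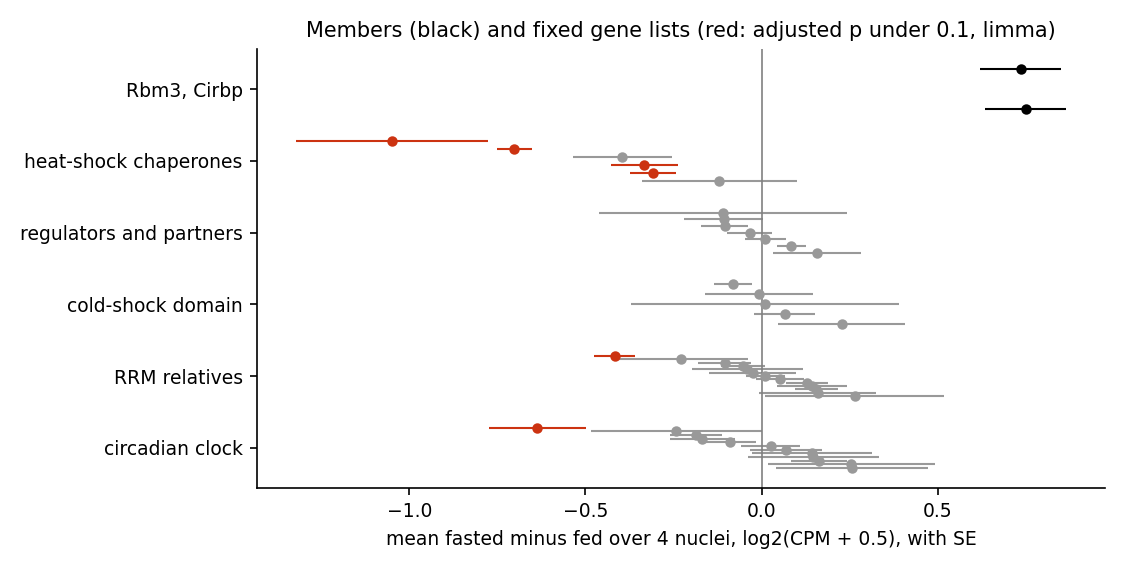
Mean difference between fasted and fed libraries over 4 nuclei in log2(CPM + 0.5), with its SE, for Cirbp and Rbm3 (black) and the measured genes of 5 lists, red where the adjusted p was under 0.1. The heat-shock genes lie between -1.05 and -0.12, the other lists spread around 0, and Rbm3 and Cirbp stand at 0.75 and 0.74, chosen by this contrast.

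Markers of cell types were counted in the same fit. Of the measured markers, none of 2 for neurons, 5 for oligodendrocytes, 5 for microglia or 3 for ependymal cells and tanycytes passed, nor did any of 8 genes of nucleus identity in the mean over nuclei. Within ARC alone, the nucleus in which it was abundant, Npy rose by 1.35 ± 0.16 (limma, adjusted p = 0.00114). Among 2 astrocyte markers Agt, the angiotensinogen gene, rose by 0.49 ± 0.10 (adjusted p = 0.00452), while Gja1 was at -0.08 ± 0.09 (adjusted p = 0.740). The summed level of the 2 ran from 85.9 to 243 CPM in fed and 70.8 to 322 in fasted libraries. Among 6 endothelial markers Flt1 fell by 0.33 ± 0.10 in the mean over nuclei (adjusted p = 0.0730), with -0.68 ± 0.21 in DMH, -0.53 ± 0.21 in ARC and -0.25 ± 0.22 in VMH but 0.12 ± 0.15 in PVN. Of the other endothelial markers, which did not pass, Cldn5 and Ly6c1 were above 0 (0.21 ± 0.22 and 0.02 ± 0.19) and Itm2a, Slco1c1 and Kdr below (-0.57 ± 0.19, -0.43 ± 0.17 and -0.09 ± 0.26). The summed level of the 6 ran from 85.7 to 256 CPM in fed and 58.4 to 309 in fasted libraries. No measured marker was at 0 in all libraries, but the neuronal, astrocyte and other defining markers outside the table were not analysed here. With 1 value per mouse the adjusted p was 0.406 for Agt and 0.448 for Flt1, and without the batch covariate it was 0.182 and 0.423. Flt1 also missed with log2 depth as a covariate (-0.24, adjusted p = 0.284), without mice Fast-85 and Fed-92 (0.115) and without mouse Fast-100, Fast-101, Fed-125, Fed-308, Fast-311 or Fed-313 (adjusted p 0.136 to 0.277). Agt had r = 0.57 with Cirbp and 0.43 with Rbm3 over the 41 libraries, and 0.22 and -0.01 within states, and its part in the levels of the pair was not tested.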

How the data were processed

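The authors, by the labels and methods of the study, laser-captured each nucleus from cryosections, amplified the RNA with the Ovation RNA-Seq V2 system, sequenced single-end reads, mapped them to GRCm38 and left out outlier libraries, which can lower the spread within groups. The submitters' processing notes name CASAVA 1.7, TopHat2 2.0.11, Cufflinks 2.2.1, edgeR and limma. The counting program is not given in the sources used here. The authors deposited CPM per Ensembl gene, and 9891 of 10127 genes were named through GENCODE M21. The genes of the table summed to 554896 to 689010 CPM a library, so the table does not hold all counts. The highest sums, 689010 and 657687 CPM, were in the PVN of mice Fast-86 and Fed-111, both of batch 1. Of the columns, 41 were matched to a sample and 2 were not used, and 2 of 43 samples were not analysed here.

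Depth was read from the low values, 97.7% to 98.7% of which were within 0.1 of a whole number of reads. Some genes held positive values far below 1 read, so that reads could not be recovered as whole counts and no count test was made. Amplified reads are not independent molecules, and counting errors cover sampling alone. Tests used log2(CPM + 0.5) and genes at 1 CPM or more in as many libraries as the smallest group, in limma 3.58.1 under R 4.3.3 (trended eBayes, batch as a covariate), with p adjusted by the Benjamini-Hochberg method over all genes and 0.1 as the threshold. A pseudocount understates differences of low genes. The pooled fit held 8 group means with the mouse as a block (statmod 1.5.0, consensus correlation -0.003). The mouse number in the titles pairs libraries of 1 animal, and over 57 such pairs the correlation of deviations was -0.12 to 0.02. Separate mice are the replicates of a state within a nucleus. The scripts were tested on simulated data.

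Rbm3, Cirbp and the gene lists were chosen with earlier results of these data known. Of each list the genes past the threshold were named, or the 3 most abundant where none passed, 1 of which is not reported here. The genes with the 5 highest and 5 lowest r were named for likeness. Cryab, Bag3, Clock, Per2, Dbp, Gja1 and the endothelial markers other than Flt1 were named after their values were seen. Alternatives changed the pseudocount (0.1, 2), the filter, the scaling, the batch, depth and block terms, and left out each library or mouse. Leaving out batch 1, or mice Fast-85 and Fed-92, was added after the data were seen.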

Additional observations from a re-analysis of the deposited data

Results flagged for a closer look

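Of 20 groups of Rbm3 or Cirbp values examined, 1 held a library far from the others. Cirbp in the PVN of fasted mouse Fast-86 was at 36.5 CPM while the other 4 fasted PVN libraries were between 71.4 and 81.5, a gap of 0.775 of the whole range of the group. Rbm3 in the same library, at 43.7 CPM, was inside the range of the other fasted PVN libraries. The library of mouse Fast-86 was the only batch 1 library of fasted PVN. In fed PVN the only batch 1 library, of mouse Fed-111, was also the lowest of its group for Cirbp, at 23.4 CPM. Within batch 1 the fasted PVN library was higher by 0.63 on the log2 scale. The part of batch in this value was not tested. Chance marks about 1 in 20 such groups.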

How the results depend on the processing

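The higher level of Rbm3 and Cirbp in fasted libraries kept its sign in each nucleus and in the mean over nuclei under every alternative run, from 0.69 to 0.78 for Rbm3 and from 0.61 (without batch 1) to 0.84 (1 mean value per mouse) for Cirbp in the mean. Leaving out 1 mouse gave 0.69 to 0.83 and 0.66 to 0.79. Without the replicate block the values were 0.75 and 0.74, no call of Rbm3 or Cirbp levels changed with it or with the mouse as a fixed block, and 152 and 166 genes were higher and lower in fasted mice, against 154 and 168. Without the batch covariate 5 genes were higher and 9 lower, of which 1 heat-shock, 0 RRM and 0 clock genes, and with 1 mean value per mouse 1 and 1, of which 1, 0 and 0. Leaving out 1 mouse gave 73 to 167 higher and 82 to 185 lower genes (fewest without mouse Fast-100) and 2 to 5 lower heat-shock genes. Without batch 1, there were 2 lower heat-shock and 2 lower RRM genes. The Cirbp differences ARC minus PVN (0.26) and ARC minus VMH (0.31) lost their call without batch 1, and leaving out 1 mouse gave 0.34 to 0.57 and 0.27 to 0.52. DMH minus PVN of Cirbp reached 0.39 without mice Fast-85 and Fed-92, and ranged from 0.20 to 0.39 and DMH minus VMH from 0.15 to 0.41 when 1 mouse was left out. Differences near 0 changed sign: without batch 1, Rbm3 DMH minus VMH (0.039) and PVN minus VMH (0.018) and Cirbp PVN minus VMH (0.055), and without mice Fast-85 and Fed-92, Rbm3 ARC minus VMH (-0.000622). Without 1 mouse Rbm3 ran from -0.063 to 0.12 for ARC minus DMH, -0.047 to 0.043 for ARC minus VMH, -0.094 to 0.087 for DMH minus VMH and -0.22 to 0.012 for PVN minus VMH, and Cirbp from -0.13 to 0.063 for PVN minus VMH. The correlation of Rbm3 and Cirbp over fed mice was 0.32 in mice with all 4 nuclei, and without 1 mouse it ran from -0.80 to 0.32, and over fasted mice from -0.59 to 0.57. The cause of these changes was not tested. With 66 to 276 reads of Rbm3 a library, Poisson counting error was below the spread between libraries, and noise from capture and amplification was not measured.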
